A study of Rattus norvegicus with 12 samples.

Results

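The genes described are 9 bile acid and sterol transporters of the hepatocyte, namely Slc10a1, Slco1a4, Slco1b2, Abcb11, Abcc2, Abcb4, Abcg5, Abcg8 and Abcc3. They were taken as every probe set that the platform annotation ties to exactly 1 of these symbols, which gave 11 of the 31042 probe sets tested, for 9 of the 14217 genes named, since Slco1a4 and Slco1b2 have 2 probe sets each. RNA was measured in 12 tissue samples of adult male Sprague-Dawley rats on single-colour Affymetrix arrays, 3 arrays for each of 4 groups, and the number of arrays limits the precision of every value. The control rats were injected with distilled water, and no time of sacrifice is stated for them. The other rats received diethylnitrosamine (DEN), an alkylating liver carcinogen that hepatocytes activate, at 70 mg/kg into the peritoneum weekly for 10 weeks. Their tissue was taken at week 5 (hepatitis), at weeks 13 to 14 (cirrhosis) and at weeks 23 to 24 (hepatocellular carcinoma, HCC) after DEN, and the labels do not say whether weeks run from the first or the last injection. The tissue label is liver for all 12 samples, whereas the series description calls the last group HCC tissue. Nothing in the labels ties each array to its own rat, and the p-values therefore reflect the spread among these arrays, which may be technical.

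Bile forms when hepatocytes take up bile salts from sinusoidal blood and pump them, with phospholipid, cholesterol and conjugated anions, across the canalicular membrane. Slc10a1 (NTCP) is the sodium-dependent bile salt importer, and Slco1a4 and Slco1b2 are sodium-independent organic anion importers of the same membrane. At the canaliculus Abcb11 (BSEP) exports bile salts and Abcc2 (MRP2) exports conjugated bilirubin and other glucuronides and glutathione conjugates. Abcb4 (MDR2) flips phosphatidylcholine towards the canalicular lumen, and Abcg5 with Abcg8 forms the heterodimer that exports cholesterol and plant sterols. Abcc3 (MRP3) sits on the basolateral membrane, where it returns conjugates to the blood. The bile acid receptor FXR (Nr1h4) is known to induce Abcb11, and the oxysterol receptors LXR to induce the Abcg5 and Abcg8 pair.

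RefSeq's promoter table for the GRCr8 assembly held 7 of the 9 genes, all but Abcb11 and Abcc3. The 250 bases before the start site are shown for the 3 importers, because their levels in HCC moved the same way, and the stretch between the starts of Abcg5 and Abcg8 is shown because the pair is read from it in opposite directions. Capitals mark 3 motifs, chosen with these sequences in view and found by their letters on either strand: GTTAAT, the half-site of the hepatocyte factors of the HNF1 family, AGGTCA, a half-site of nuclear receptors, and GATAA, the core of GATA factor sites. No match overlapped another.
Slc10a1, chr6:106357945-106358194, minus strand: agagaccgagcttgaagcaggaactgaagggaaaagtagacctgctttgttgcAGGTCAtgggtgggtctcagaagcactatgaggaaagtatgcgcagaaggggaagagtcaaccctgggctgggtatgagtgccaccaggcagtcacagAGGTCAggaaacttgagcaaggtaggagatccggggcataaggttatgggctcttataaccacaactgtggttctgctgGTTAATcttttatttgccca
Slco1b2, chr4:176282334-176282583, plus strand: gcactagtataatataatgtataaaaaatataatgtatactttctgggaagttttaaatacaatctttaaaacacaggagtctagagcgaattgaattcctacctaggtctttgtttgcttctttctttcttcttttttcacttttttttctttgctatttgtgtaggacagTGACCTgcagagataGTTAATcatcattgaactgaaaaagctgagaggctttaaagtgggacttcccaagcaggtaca
Slco1a4, chr4:176495847-176496096, minus strand: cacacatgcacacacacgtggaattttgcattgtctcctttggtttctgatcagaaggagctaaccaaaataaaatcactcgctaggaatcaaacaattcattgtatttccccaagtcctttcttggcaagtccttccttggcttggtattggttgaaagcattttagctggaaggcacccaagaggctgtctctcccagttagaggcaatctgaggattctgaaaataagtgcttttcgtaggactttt
Abcg5 and Abcg8, chr6:15717731-15717935, plus strand, read towards Abcg5: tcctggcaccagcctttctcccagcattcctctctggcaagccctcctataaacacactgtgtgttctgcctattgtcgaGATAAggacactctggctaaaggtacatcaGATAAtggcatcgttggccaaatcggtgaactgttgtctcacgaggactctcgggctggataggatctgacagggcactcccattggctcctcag
Counting back from -1, the base before the start, the Slc10a1 window held AGGTCA from -197 and from -99 and GTTAAT from -20. The Slco1b2 window held AGGTCA on the opposite strand from -78 and GTTAAT from -63. None of these letters were found in the Slco1a4 window. Abcc2 and Abcb4, which also fell in HCC, have windows that are not shown. The Abcc2 window held GTTAAT on the opposite strand from -100, and AGGTCA from -155 and, on the opposite strand, from -115. The Abcb4 window held none of the motifs. Of all 33469 promoter windows of this length 6.45% held GTTAAT, 14.1% held AGGTCA and 23.5% held GATAA. The 205 bases between the starts of Abcg5 and Abcg8 held GATAA from -125 and from -95 before Abcg5. The inverted repeat of the nuclear receptor half-site with 1 base between, the known FXR motif, was in 0.0269% of all windows and in 0 of the 7 member windows. Abcb11, the member that FXR is known to induce, had no window, so its promoter was not searched. Slco1b2 and Slco1a4 are neighbours on chromosome 4, with 0 annotated genes between them. A match of letters describes the sequence and is not evidence of binding.

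The 9 arrays of control, hepatitis and cirrhosis lay apart from HCC, and HCC replicate 2 was nearest to them. On the first principal component, with 58.6% of the variance, HCC replicates 1, 2 and 3 lay at 86.8, 45.1 and 96.1, against -29.5 to -12.0 on the other arrays. Between the 3' and the 5' control probe sets of Gapdh, a sign of RNA quality, the difference (log2) was 0.87 to 1.03 in control, 0.38 to 0.70 at hepatitis, 0.42 to 0.56 at cirrhosis and 1.36 to 3.20 in HCC. For beta-actin it was 2.49 to 2.78 in control, 2.18 to 2.61 at hepatitis, 2.27 to 2.49 at cirrhosis and 3.90 to 5.14 in HCC. Hepatocyte markers were present on every array: the summed intensity of 11 of them was 89835 to 91043 in control, 95520 to 96618 at hepatitis, 88509 to 89276 at cirrhosis and 50063 to 82969 in HCC. In HCC against control 5 of these 11 markers fell and 0 rose, where 18.3% of all genes fell and 19.1% rose. Markers of other cells moved too in HCC against control: of 9 macrophage markers 5 fell and 0 rose, of 6 endothelial markers 3 fell and 0 rose, of 11 stellate cell and myofibroblast markers 1 fell and 5 rose, and of 7 skeletal muscle markers 0 were called. The summed intensity of the muscle markers was 2629 on control replicate 2, against 65 and 91 on control replicates 1 and 3 and 60 to 92 on the DEN arrays. Without control replicate 2, 9 of the 11 transporter probe sets were called in HCC against control, with the call of Abcc2 lost, and 1 each in hepatitis and in cirrhosis. Over all probe sets that fit called 6642 in HCC and 297 in hepatitis against control, where the fit with all arrays called 9237 and 916. In cirrhosis it also called fewer than the 1125 called with all arrays. The part of RNA quality or of cell content in the results on HCC was not tested. In bulk tissue, fewer cells of a type and less RNA per cell cannot be told apart.

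In HCC against control, the comparison with the most calls of the 3 that share the control arrays, 9 of the 11 probe sets fell and 1 rose, and Abcg8 was the 1 not past the threshold (limma, Benjamini-Hochberg adjusted p under 0.05 over all probe sets tested). Of all probe sets tested 14.1% were called lower and 15.7% higher in that comparison. The median log2 difference was -2.94 over the 11 probe sets and 0.01 over all probe sets. All 3 HCC arrays lay below all 3 controls for 9 probe sets (19.2% of all) and above them for 1 (20.9%). Against hepatitis 8 fell and 1 rose in HCC (13.4% and 15.5% of all probe sets), and against cirrhosis 8 fell and 1 rose (14.8% and 17.5%). The HCC arrays lay below all hepatitis arrays for 7 (17.2%) and above for 1 (20.2%), and below all cirrhosis arrays for 8 (20.8%) and above for 1 (22.7%). In both of these comparisons the 2 probe sets without a call were those of Abcg5 and Abcg8. At the earlier stages 1 of the 11 fell against control, that of Abcg5, in hepatitis (1.53% of all probe sets called lower) and in cirrhosis (2.04%), and 0 rose (1.42% and 1.59% called higher). Between cirrhosis and hepatitis 0 of the 11 were called by limma, against 0.651% of all probe sets, 3 had an unadjusted p under 0.05 (the dimmer probe sets of Slco1a4 and Slco1b2, and Abcc3), and none of the planned settings that kept all 12 arrays in the fit called one. The moderated F test across the 4 groups called 10 of 11 probe sets, and 33.2% of all.

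**Figure D1:**
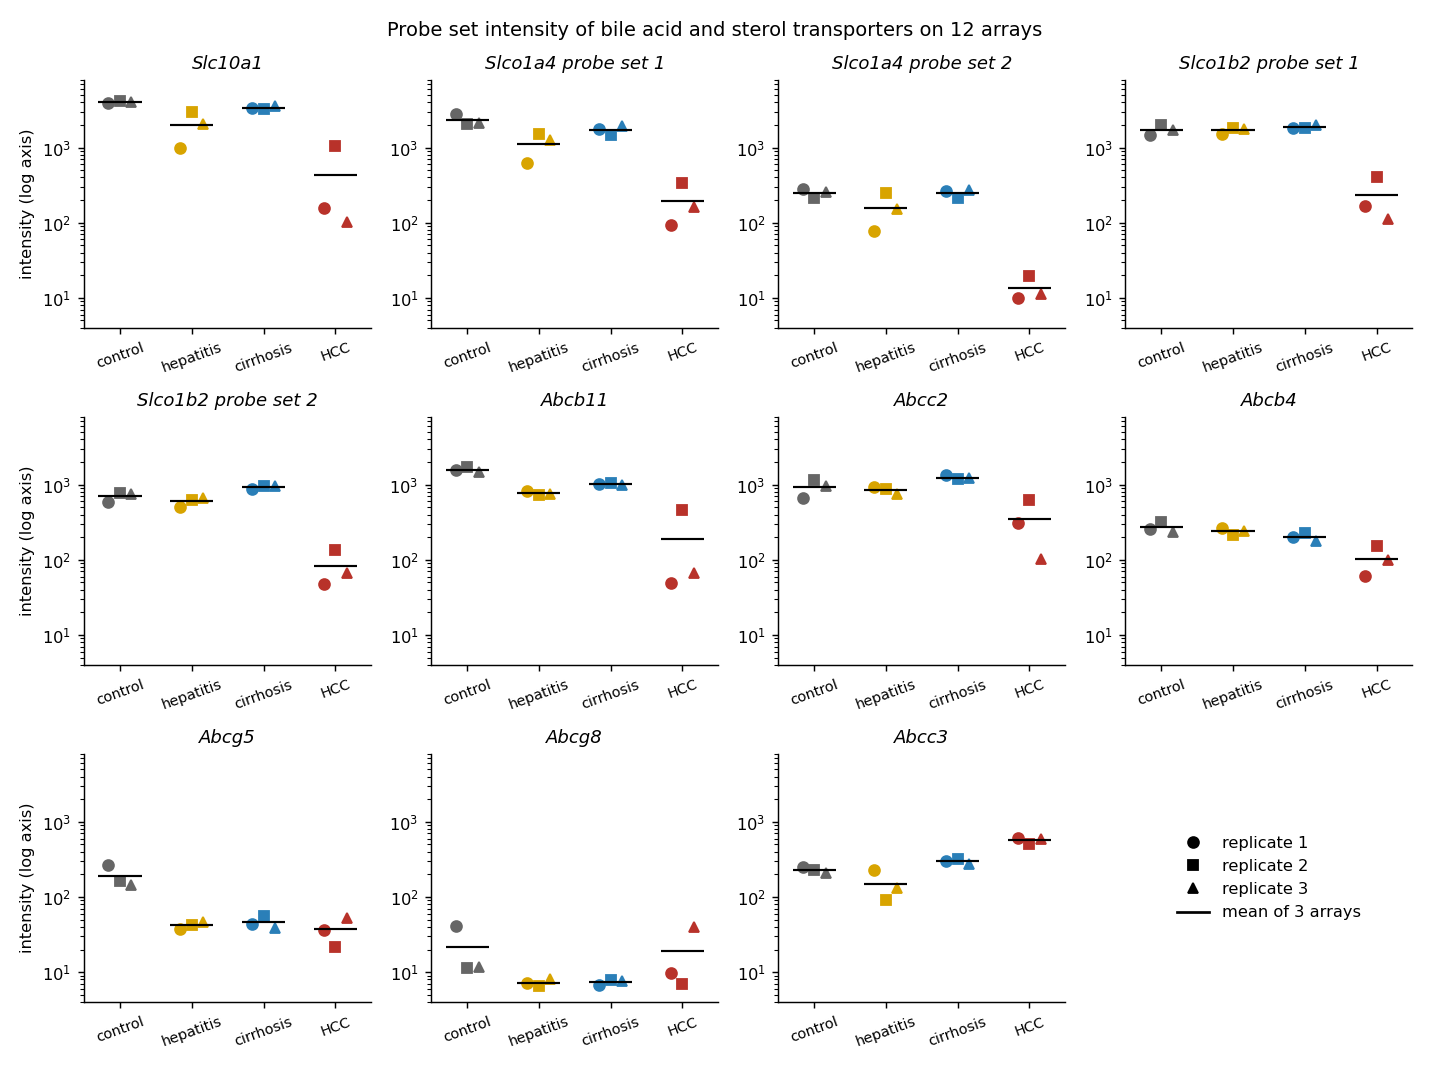
Intensity (log axis) of the 11 probe sets on each array, by group from control to HCC, with symbols for replicates 1 to 3 and a line at the mean. The importers and Abcb11 are lowest in HCC, Abcg5 is low in the 3 DEN groups, Abcc3 is highest in HCC, and Abcg8 lies at 6.45 to 41.7 throughout.

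The importers lost most of their signal in HCC. Slc10a1 had intensities of 3951.1, 4146.9 and 4088.2 in control, 991.6, 2950.7 and 2082.5 in hepatitis, 3340.4, 3297.1 and 3563.5 in cirrhosis, and 154.8, 1044.0 and 103.3 in HCC. All 3 arrays of each DEN group lay below all 3 controls, and HCC replicate 2 overlapped the hepatitis arrays. Slc10a1 fell by 3.87 ± 0.70 in HCC against control (log2 of value + 16, SE, n = 3 per group; limma adjusted p = 0.00281), which is 14.6-fold on that scale. Its levels ran from control through cirrhosis and hepatitis to HCC, and of these neighbours hepatitis and HCC differed past the threshold (-2.73 ± 0.70, adjusted p = 0.0158). That call ended without hepatitis replicate 2 (adjusted p = 0.0615) or HCC replicate 3 (adjusted p = 0.0522), and with only the 2 groups in the fit (adjusted p = 0.121). The differences from control were -1.14 ± 0.70 in hepatitis (adjusted p = 0.508) and -0.26 ± 0.70 in cirrhosis (adjusted p = 0.941). With only the arrays of cirrhosis and control fitted, the cirrhosis difference passed the threshold (adjusted p = 0.0152).

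Slco1a4, an importer with a wide range of substrates, had on its brighter probe set (probe set 1 in the plots) 2783.3, 2036.2 and 2135.1 in control, 617.6, 1525.4 and 1251.8 in hepatitis, 1759.1, 1450.2 and 1949.3 in cirrhosis, and 92.8, 337.6 and 160.9 in HCC. The groups of HCC and of each other stage did not overlap. It fell by 3.61 ± 0.42 in HCC against control (log2, SE; adjusted p = 0.000339), which is 12.2-fold. The dimmer probe set had 211.2 to 285.1 in control, 76.9 to 246.2 in hepatitis, 211.2 to 269.9 in cirrhosis and 9.81 to 19.7 in HCC. It fell by 3.18 ± 0.31 (adjusted p = 0.000143), a size that the added 16 holds down, since the HCC values lie near 16. In hepatitis the brighter probe set lay at -1.11 ± 0.42 (adjusted p = 0.231) and the dimmer at -0.73 ± 0.31 (adjusted p = 0.298), both short of the threshold. Hepatitis replicate 1 was the lowest hepatitis array for 6 of the 11 probe sets, those of Slc10a1, Slco1a4, Slco1b2 and Abcg5. It was the highest hepatitis array for Abcb11, Abcc2, Abcb4 and Abcc3.

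Slco1b2, the liver-specific anion importer, was called in the fit of all 4 groups only in the comparisons with HCC. Its brighter probe set had 1482.5, 1970.8 and 1735.6 in control, 1514.1, 1835.0 and 1788.6 in hepatitis, 1798.7, 1831.5 and 2015.6 in cirrhosis, and 167.8, 410.2 and 113.1 in HCC. The control, hepatitis and cirrhosis arrays overlapped, and the HCC arrays lay below all of them. It fell by 3.00 ± 0.35 in HCC against control (adjusted p = 0.000309), by 2.99 ± 0.35 against hepatitis (adjusted p = 0.000287) and by 3.13 ± 0.35 against cirrhosis (adjusted p = 0.000186). The dimmer probe set had 507.7, 620.3 and 673.1 in hepatitis and 48.0, 135.7 and 67.7 in HCC. It had 885.5, 951.3 and 973.4 in cirrhosis against 590.1, 766.1 and 751.2 in control, with no overlap, at 0.42 ± 0.26 (log2, adjusted p = 0.523). With only these 2 groups fitted, that difference passed (adjusted p = 0.0458), while the brighter probe set lay at 0.13 ± 0.35 (adjusted p = 0.94). Cirrhosis also lay above hepatitis on all arrays of the dimmer probe set, by 0.64 ± 0.26 (adjusted p = 0.423), which passed without the 3 HCC arrays (0.0387). In HCC against control the dimmer probe set fell by 2.94 ± 0.26 (adjusted p = 9.57e-05).

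**Figure D2:**
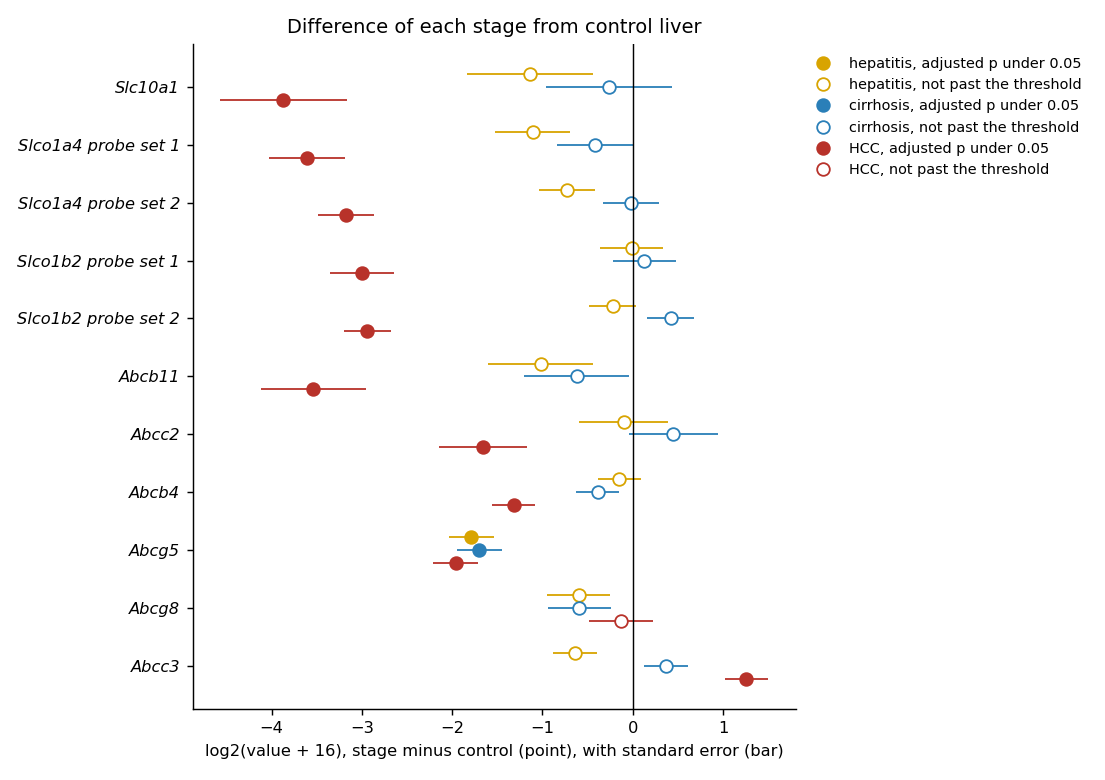
Difference of each stage from control in log2(value + 16) for the 11 probe sets (points, with standard errors from the fit as bars), filled where the adjusted p is under 0.05. Of the filled points, 10 are HCC and the other 2 are Abcg5 in hepatitis (-1.79) and cirrhosis (-1.70), and Abcc3 in HCC is the 1 filled point above 0, at 1.26.

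The bile salt pump Abcb11 lay below control on all arrays of each stage, and lowest in HCC. It had 1562.7, 1696.2 and 1481.9 in control, 824.2, 732.2 and 756.7 in hepatitis, 1023.8, 1051.3 and 996.6 in cirrhosis, and 49.5, 455.4 and 67.6 in HCC. No 2 groups overlapped, and the order was control, cirrhosis, hepatitis, HCC. Abcb11 fell by 3.54 ± 0.58 in HCC against control (log2, SE; adjusted p = 0.00176), which is 11.6-fold. Against hepatitis it fell by 2.52 ± 0.58 (adjusted p = 0.00972) and against cirrhosis by 2.92 ± 0.58 (adjusted p = 0.00414). With only HCC and hepatitis in the fit the first of these did not pass (adjusted p = 0.0959).

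In the fit of all 4 groups the earlier differences of Abcb11 from control were not called, at -1.02 ± 0.58 in hepatitis (adjusted p = 0.467) and -0.62 ± 0.58 in cirrhosis (adjusted p = 0.719). That fit takes 1 spread per probe set from all arrays, and the SD of Abcb11 (log2) was 0.10 in control, 0.09 at hepatitis, 0.04 at cirrhosis and 1.55 in HCC. Without the 3 HCC arrays, an alternative added after the data were seen, Abcb11 fell in hepatitis (adjusted p = 0.000234) and in cirrhosis (adjusted p = 0.003), and it was higher in cirrhosis than in hepatitis by 0.40 (adjusted p = 0.0193). With only the 2 groups compared, the adjusted p was 0.00766 in hepatitis and 0.002 in cirrhosis, and without HCC replicate 2 it was 0.000981 and 0.0103. Slc10a1 in hepatitis, with a larger spread between its own arrays, was not called under any of these settings. At the hepatitis stage 5 of the 11 probe sets had all 3 arrays below all 3 controls (14.7% of all probe sets), with 0 above them (12.8%), and at the cirrhosis stage 6 lay below (17.9%) and 3 above (16.3%). In cirrhosis against hepatitis 5 lay above (12.2%) and 0 below (11.3%).

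Abcc2, the exporter of conjugated bilirubin, had 663.3, 1159.8 and 969.8 in control, 934.1, 873.5 and 745.2 in hepatitis, 1334.7, 1179.0 and 1220.5 in cirrhosis, and 310.6, 633.3 and 101.9 in HCC. The cirrhosis arrays lay above and the HCC arrays below all controls. It fell by 1.66 ± 0.49 in HCC against control (log2, SE; limma adjusted p = 0.0297) and by 2.11 ± 0.49 against cirrhosis (adjusted p = 0.00926, or 0.0646 with only these 2 groups fitted). In cirrhosis against control the difference was 0.45 ± 0.49 (adjusted p = 0.777). Leaving out control replicate 2 ended the HCC call (adjusted p = 0.099), as did leaving out control replicate 3 (0.0784), quantile normalization (0.0544) and a fit of only the 2 groups (0.146). The fall against hepatitis, at 1.56 ± 0.49 (adjusted p = 0.0389), held in 2 of the 12 fits that left out 1 array, those without control replicate 1 and without HCC replicate 2.

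The lipid exporters behaved differently from each other. Abcb4, the phospholipid flippase, had 260.1, 320.5 and 232.7 in control, 269.5, 212.5 and 244.4 in hepatitis, 200.6, 228.7 and 178.5 in cirrhosis, and 61.8, 150.9 and 98.9 in HCC. The HCC arrays lay below all others, and the group means were ordered control, hepatitis, cirrhosis, HCC. Abcb4 fell by 1.32 ± 0.24 in HCC against control (log2, SE; limma adjusted p = 0.00294), by 1.17 ± 0.24 against hepatitis (adjusted p = 0.00541) and by 0.93 ± 0.24 against cirrhosis (adjusted p = 0.0147). The last call ended without cirrhosis replicate 2 (adjusted p = 0.0555), and with only the 2 groups fitted neither the hepatitis (0.0588) nor the cirrhosis comparison (0.0747) passed. The differences from control before HCC were -0.15 ± 0.24 in hepatitis and -0.39 ± 0.24 in cirrhosis, both short of the threshold (adjusted p = 0.876 and 0.504).

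Abcg5, a subunit of the sterol exporter, was the member called against control at every stage. It had 267.6, 164.0 and 142.4 in control, 37.6, 42.4 and 47.1 in hepatitis, 44.0, 56.4 and 38.8 in cirrhosis, and 36.8, 21.7 and 53.2 in HCC. The 9 arrays of the DEN groups overlapped each other and lay below all controls. Abcg5 fell by 1.79 ± 0.25 in hepatitis (log2, SE; adjusted p = 0.00687), by 1.70 ± 0.25 in cirrhosis (adjusted p = 0.0103) and by 1.96 ± 0.25 in HCC (adjusted p = 0.000498), each against control. The hepatitis call held whichever of the 12 arrays was left out, with adjusted p from 0.0036 to 0.0328. The cirrhosis call ended without cirrhosis replicate 1 (adjusted p = 0.0501) or replicate 3 (0.0521). Between stages the differences were 0.09 ± 0.25 in cirrhosis against hepatitis, -0.17 ± 0.25 in HCC against hepatitis and -0.26 ± 0.25 in HCC against cirrhosis (adjusted p = 0.981, 0.669 and 0.471).

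Abcg8, the partner of Abcg5 that is read from the facing strand of the stretch shown above, was too dim to follow. It had 41.7, 11.3 and 11.6 in control, 7.13, 6.45 and 8.03 in hepatitis, 6.68, 7.76 and 7.73 in cirrhosis, and 9.76, 7.04 and 40.3 in HCC. Only control replicate 1 and HCC replicate 3 were above 16, while 33.9% to 35.8% of all values on an array lay below 16. All hepatitis and cirrhosis arrays lay below all controls, and no difference was called: -0.60 ± 0.35 in hepatitis, -0.59 ± 0.35 in cirrhosis and -0.13 ± 0.35 in HCC against control (adjusted p = 0.48, 0.482 and 0.832). Without control replicate 1 the HCC difference turned to 0.23 (adjusted p = 0.664). Since Abcg8 was hardly measured, whether the pair changed together was not tested.

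Abcc3, the basolateral exporter, was the member that rose. It had 251.9, 226.5 and 206.8 in control, 230.2, 91.2 and 130.3 in hepatitis, 305.7, 320.8 and 272.7 in cirrhosis, and 618.4, 503.9 and 585.6 in HCC. The HCC arrays lay above all others, and the cirrhosis arrays lay above those of control and hepatitis. Abcc3 rose by 1.26 ± 0.24 in HCC against control (log2, SE; limma adjusted p = 0.00404), by 1.89 ± 0.24 against hepatitis (adjusted p = 0.000499) and by 0.89 ± 0.24 against cirrhosis (adjusted p = 0.0196). The last call ended without cirrhosis replicate 1 (adjusted p = 0.0515) or 3 (0.0658), or HCC replicate 1 (0.052) or 3 (0.053). In cirrhosis against control it lay at 0.37 ± 0.24 (adjusted p = 0.544), which passed with only these 2 groups fitted (0.0363). In hepatitis against control it lay at -0.64 ± 0.24 (adjusted p = 0.231), which without hepatitis replicate 1 became -0.96 (adjusted p = 0.0209). Against hepatitis, cirrhosis lay at 1.01 ± 0.24 (adjusted p = 0.122), and at 1.33 without that array (adjusted p = 0.0108).

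Bile duct cells also express Abcc3, and their markers were measured beside it. Of 8 cholangiocyte markers measured, 2 rose in HCC against control and 0 fell, where 19.1% of all genes rose and 18.3% fell. The summed intensity of the 8 markers was 583 to 630 in control, 760 to 1993 in hepatitis, 1221 to 1383 in cirrhosis and 1769 to 7255 in HCC. The keratin gene Krt7 was under 16 on all control and all cirrhosis arrays, and the chloride channel gene Cftr on all control arrays. Within HCC the marker sum was 7255, 1769 and 1821 on replicates 1, 2 and 3, where Abcc3 had 618.4, 503.9 and 585.6. On hepatitis replicates 1, 2 and 3 the sum was 1993, 811 and 760, above all controls, where Abcc3 had 230.2, 91.2 and 130.3, the last 2 below all controls. The part of bile duct cells in the rise of Abcc3 was not tested.

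The 3 HCC arrays differed from each other in how far the transporters had fallen. HCC replicate 2 was the array nearest to the control mean in 9 of the 11 probe sets. Slc10a1 lay at -1.94 (log2) from the control mean on HCC replicate 2, and at -4.58 and -5.09 on replicates 1 and 3. Abcb11 lay at -1.76 on replicate 2, and at -4.60 and -4.25 on replicates 1 and 3. For Abcc2 the values were -0.51 on replicate 2, -1.50 on replicate 1 and -2.97 on replicate 3. The dimmer probe set of Slco1a4 spanned less, at -2.90 on replicate 2 and -3.37 and -3.29 on the others, and Abcc3 lay at 1.09 on replicate 2 and 1.38 and 1.30 on the others. The same array had the HCC group's highest sum of hepatocyte markers, 82969 against 62540 and 50063 on replicates 1 and 3, and the lowest alpha-fetoprotein (Afp, a fetal liver protein), 576.5 against 9199.4 and 7098.2. Without HCC replicate 2, 10 of the 11 probe sets were called in HCC against control, Slc10a1 fell by 4.84 and Abcb11 fell by 4.43. Over all 31042 probe sets 10638 were called in that comparison without the array, against 9237 with it.

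**Figure D3:**
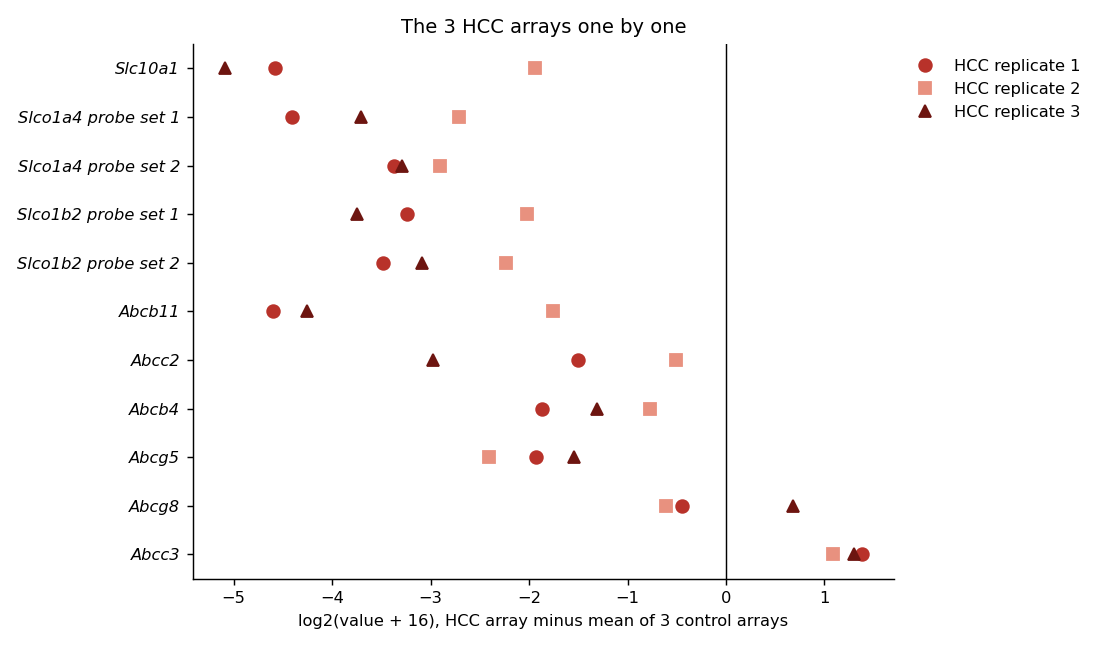
Difference of each HCC array from the mean of the 3 control arrays in log2(value + 16) for the 11 probe sets, with a symbol for each HCC replicate. Replicate 2 is nearest to 0 for 9 probe sets, whereas for Abcg5 it lies at -2.41, below replicates 1 (-1.93) and 3 (-1.54).

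Among other transporters of bile acids, sterols and organic anions 4 of 18 measured genes fell and 2 rose in HCC against control, and 12 were not called. Of all 14217 named genes, each on its brightest probe set, 18.3% fell and 19.1% rose in that comparison, so the share called in the list was near that of all genes. The median difference of the list was -0.31 (log2), and 0 were called in hepatitis or cirrhosis against control. Slco1a1, a further organic anion importer of the rat hepatocyte, fell by 3.29 ± 0.47 (limma adjusted p = 0.000912) to 39.0 ± 49.6 in HCC, against 402.3 ± 23.8 in control (intensity, SD, n = 3). Slco2b1, another importer, fell by 1.94 ± 0.30 (adjusted p = 0.00122). Tmem30a, the partner subunit of phospholipid flippases, fell by 1.82 ± 0.32 (adjusted p = 0.00247). Both genes that rose were exporters of the Abcc family. Abcc1 had 302.1, 234.8 and 297.6 in HCC, against 74.4, 71.6 and 71.4 in control, and rose by 1.72 ± 0.10 (adjusted p = 1.94e-05). Abcc4, a basolateral exporter that can carry bile acids, had 200.3, 138.9 and 120.2 in HCC, against 73.4, 63.5 and 56.6 in control, and rose by 1.05 ± 0.17 (adjusted p = 0.00186). Abcc4 lay at -0.71 ± 0.17 in hepatitis (adjusted p = 0.0638), on the same side of control as Abcc3.

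**Figure D4:**
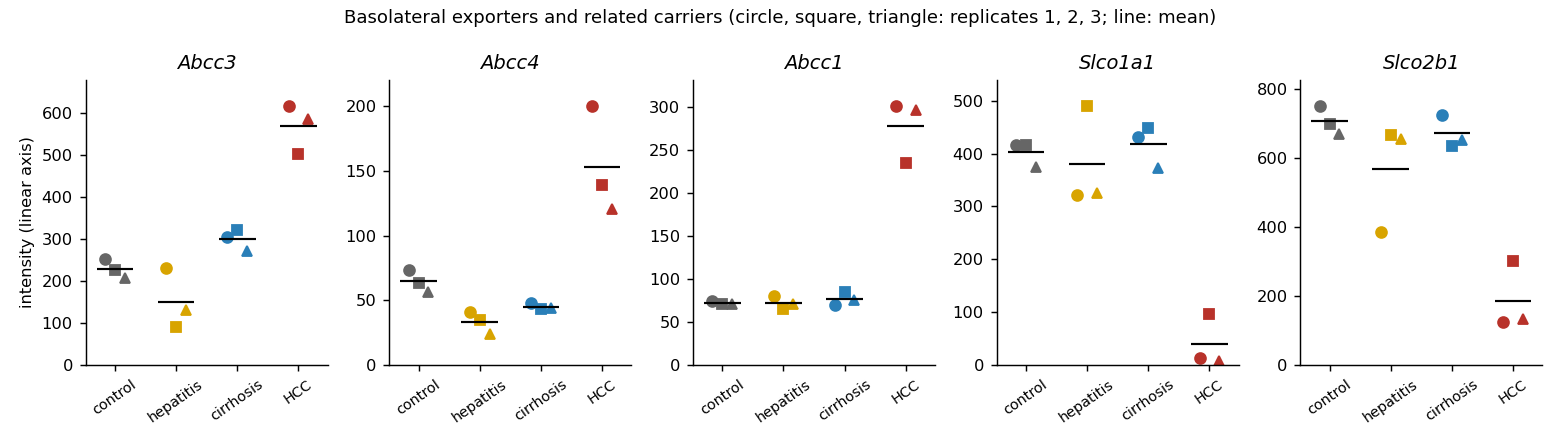
Intensity (linear axis from 0) of Abcc3, Abcc4, Abcc1, Slco1a1 and Slco2b1 on each array, by group from control to HCC, with a line at the mean of 3 arrays. The 3 Abcc exporters are highest on the HCC arrays, with Abcc1 at 234.8 to 302.1, and both Slco importers are lowest there, with Slco1a1 at 7.79 to 96.2.

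Of 23 receptors and factors known to govern these or related genes, 14 fell, 0 rose and 9 were not called in HCC against control (median -0.82), where 18.3% of all genes fell. In HCC against cirrhosis 12 fell and 1 rose (17.6% and 19.3% of all genes). Against control 5 fell and 1 rose in hepatitis (285 and 245 of the 14217 genes), and 0 fell and 1 rose in cirrhosis (283 and 234). Nr1h4, which encodes FXR, had 89.9, 330.3 and 135.4 in HCC, against 732.8, 527.2 and 408.4 in control, and fell by 1.65 ± 0.40 (limma adjusted p = 0.012). Nr0b2 (SHP), a repressor that FXR induces, fell by 2.80 ± 0.59 in hepatitis (adjusted p = 0.0361) and fell by 3.79 ± 0.59 in HCC (adjusted p = 0.00128), each against control. Nr1i3 (CAR), a receptor known to induce Abcc2 and Abcc3, fell by 2.05 ± 0.23 in HCC (adjusted p = 0.000292). Nfe2l2 (NRF2), also known to act on Abcc genes, rose by 1.49 ± 0.24 in hepatitis and by 1.41 ± 0.24 in cirrhosis against control (adjusted p = 0.0127 and 0.017), and fell by 1.75 ± 0.24 in HCC against cirrhosis (adjusted p = 0.000551).

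Of 15 genes of bile acid synthesis and conjugation 13 fell in HCC against control (median -1.99, with 18.3% of all genes called lower), and 0 of 15 were called in hepatitis or cirrhosis. Cyp8b1, which directs synthesis to cholic acid, fell by 4.24 ± 0.34 in HCC (limma adjusted p = 5.94e-05), and Cyp7a1, the rate-limiting enzyme, fell by 4.12 ± 0.72 (adjusted p = 0.00242). All hepatitis and cirrhosis arrays of Cyp7a1 also lay below all controls, at -1.16 ± 0.72 and -1.71 ± 0.72 (adjusted p = 0.52 and 0.269). Cyp8b1 lay at 0.03 ± 0.34 and -0.11 ± 0.34 at these stages. Of 12 genes of the canalicular scaffold and membrane traffic, 3 rose and 4 fell in HCC against control (19.1% and 18.3% of all genes, median -0.12). Ezr, which encodes ezrin, the membrane-actin linker of bile duct cells, rose by 2.52 ± 0.52 (adjusted p = 0.00566). Pdzk1, a scaffold protein of transporters, fell by 1.54 ± 0.18 (adjusted p = 0.0003), and Ceacam1, a glycoprotein of the canalicular membrane, fell by 1.73 ± 0.35 (adjusted p = 0.0053).

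The genes most like 3 members were sought by the root mean square difference between profiles over the 12 arrays, each profile in log2 from its own control mean, among genes with a group mean of at least 64. Nearest to Slc10a1 were Serpina3m at 0.43, and Gstp3 and Gulo, the vitamin C synthesis enzyme, both at 0.46. Nearest to Abcb11 were Gulo at 0.38, the glucuronyltransferase Ugt2b1 at 0.41 and Stab2, a scavenger receptor of the sinusoidal endothelium, at 0.44. Stab2 lay at -0.74 from the control mean at hepatitis, -1.01 at cirrhosis and -3.53 in HCC. Nearest to Abcc3 were Ugdh, which makes the UDP-glucuronic acid that glucuronidation uses, at 0.33, Nfkb2 at 0.35 and Tacc2 at 0.38. Ugdh averaged 1710.5 in control, 1033.8 at hepatitis, 2397.5 at cirrhosis and 3476.9 in HCC, with hepatitis lowest, as in Abcc3. These are descriptions over the arrays, which share the same groups and the same differences in HCC.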

How the data were processed

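Single-colour arrays measured 12 rat tissue samples, 3 per group, with groups and replicate numbers from the sample titles. The values are intensities on a linear scale, used as deposited. MAS5 and RMA are named, per the submitters' processing notes, with neither version nor role. Median intensity was 28.69 to 30.94 per array, and 0 columns were left out.

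Of 31099 probe sets 57 array controls were left out. Of the rest 20826 had 1 gene, 436 several and 9780 none, from the platform annotation matched to RefSeq genes of GRCr8. Values were analysed as log2(value + 16), which understates the changes of dim probe sets. limma 3.58.1 (lmFit, eBayes) in R 4.3.3 fitted all 31042 probe sets on 12 arrays, with 6 contrasts and a moderated F test. Tests are 2-sided, and a call needs a Benjamini-Hochberg adjusted p below 0.05, taken over the 31042 probe sets. Fold changes are powers of the log2 difference, errors on it are standard errors of the fit, and errors on intensities are SDs. The script was tested on simulated data. The prior degrees of freedom were 1.6, and the median SD over probe sets (log2) was 0.0712 in control, 0.0804 at hepatitis, 0.0652 at cirrhosis and 0.144 in HCC.

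All members are named. Of each other list, read on the brightest probe set of each gene, named genes are among the 4 called with the largest absolute difference per comparison. Not all of these are named: Rarb, Onecut1 and Cebpa are among those left out, so the choice within them was not by rank. Genes in likeness are the 3 nearest. Abcc4 against control is given after its value was seen. The members, lists and promoter motifs were chosen with earlier results of these data known. Other settings changed the added number, dim probe sets, normalization, 1 probe set per gene, moderation, the groups in the fit, a replicate block and the arrays. Correlations of deviations from group means were -0.23 to 0.34 over 18 pairs of same-numbered arrays of different groups, of which 2 were over 0.1. Over the 36 pairs with different numbers they were -0.31 to 0.19, of which 4 were over 0.1. The numbers were not taken as pairs. Figures were drawn with matplotlib 3.10.9, and tables made with pandas 2.3.3 in Python 3.11.15.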

Additional observations from a re-analysis of the deposited data

Results flagged for a closer look

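The changes of 9 probe sets differed between DEN stages in limma's test of the difference itself (adjusted p under 0.05), with the same control arrays behind both stages. In HCC against hepatitis the difference was -2.73 (log2) for Slc10a1, -2.50 and -2.46 for the brighter and the dimmer probe set of Slco1a4, and -2.99 and -2.71 for those of Slco1b2. It was -2.52 for Abcb11, -1.56 for Abcc2, -1.17 for Abcb4 and 1.89 for Abcc3. In HCC against cirrhosis the difference was -3.62 for Slc10a1, -3.18 and -3.17 for Slco1a4, and -3.13 and -3.35 for Slco1b2. It was -2.92 for Abcb11, -2.11 for Abcc2, -0.93 for Abcb4 and 0.89 for Abcc3. Abcg5 and Abcg8 were not among them. The differences of Abcc3 from control were -0.64 in hepatitis, short of the threshold, and 1.26 in HCC.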

How the results depend on the processing

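Of 66 differences (11 probe sets in 6 comparisons) 30 were past the threshold, 24 of these whichever array was left out, 23 under all other planned settings and 21 under both, and none of the 30 turned sign under any setting run. With only the groups compared in the fit, 2 members were called in hepatitis and 5 in cirrhosis against control (1 each in the fit of all groups), 1 in cirrhosis against hepatitis (0), 5 in HCC against hepatitis (9), 7 in HCC against cirrhosis (9) and 9 in HCC against control (10). Calls over all 31042 probe sets moved too, to 1189 in hepatitis and 4949 in cirrhosis against control (916 and 1125 in the fit of all groups). They were 466 in cirrhosis against hepatitis (202) and 3793 in HCC against hepatitis (8990). In HCC they were 6499 against cirrhosis (10008) and 4994 against control (9237). Without the 3 HCC arrays, a setting added after the data were seen, the member counts were 2 in hepatitis and 2 in cirrhosis against control, and 2 in cirrhosis against hepatitis. Over all probe sets the counts in these comparisons were 3113, 3314 and 1094, against 916, 1125 and 202 with the HCC arrays. Leaving out 1 array at a time gave 1 to 2 calls in hepatitis, 0 to 2 in cirrhosis and 9 to 10 in HCC against control, 0 to 1 in cirrhosis against hepatitis, 7 to 9 in HCC against hepatitis and 8 to 9 in HCC against cirrhosis. Over all probe sets these fits called 297 to 1652 in hepatitis and 194 to 1884 in cirrhosis (1125 with all arrays). In HCC they called 6642 to 10638 against control, 6698 to 10355 against hepatitis and 7611 to 11311 against cirrhosis. In cirrhosis against hepatitis they called 63 to 439. The replicate block changed no call of a member, with 10 in HCC against control, where it called 8905 of all probe sets. Its counts over all probe sets were 717 in cirrhosis against control, and 133 against 202 in cirrhosis against hepatitis. With 1 probe set per gene, 568 genes were called in hepatitis and 474 in cirrhosis of 14217 tested. Signs turned only in differences short of the threshold: quantile normalization gave 0.01 for Slco1b2 (brighter probe set) in hepatitis and 0.01 for Slco1a4 (dimmer) in cirrhosis. Leaving out arrays gave -0.12 to 0.09 and -0.13 to 0.09 for these, -0.32 to 0.08 for Abcc2 in hepatitis and -0.53 to 0.23 for Abcg8 in HCC against control, -0.01 to 0.04 for Abcg8 and -0.02 to 0.18 for Abcg5 in cirrhosis against hepatitis, and -0.38 to 0.05 for Abcg5 in HCC against hepatitis. The cause of these shifts was not tested. Low signal limits Abcg8, the HCC values of Slco1a4's dimmer probe set and the differences of Abcg5 between DEN stages.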
